A study of Homo sapiens with 4 samples.

Results

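Amino acid supply was followed through 35 genes in A549 cells, a lung adenocarcinoma line described by the submitters as NRF2-activated. The genes were chosen by symbol: ATF4 and its stress effectors, enzymes that make serine, one-carbon units, asparagine, alanine and cysteine, amino acid transporters, and tRNA synthetases. Each symbol matched 1 row of the 57820 genes in the deposited table. All 35 averaged 1 FPKM or more across the 4 libraries, as did 14068 genes in all. FPKM divides fragments by transcript length and by library size, so levels can be compared between genes. The knockdown group held 1 library from cells given CEBPB siRNA-1 and 1 from cells given CEBPB siRNA-2. The control group held 2 libraries from cells given control siRNA. All cells were grown in DMEM with serum, had fresh medium 24 h after transfection and were collected 24 h later. A549 is a single line, and each siRNA is represented by 1 library. The labels do not say whether the controls came from separate cultures, so the spread between them may be technical. The spread behind each p-value for knockdown against control starts from that between these libraries. Limma, the test used here, joins to it the spread of all tested genes at similar levels. Both parts include the difference between the 2 siRNAs. In such bulk RNA, fewer cells of a type and less RNA per cell cannot be told apart.

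ATF4 is a basic leucine zipper transcription factor whose translation rises when the initiation factor eIF2 is phosphorylated, for example when amino acids run short. It binds DNA as a dimer, often with a C/EBP family partner such as CEBPB or CEBPG, at C/EBP-ATF response elements near genes for amino acid synthesis, import and tRNA charging. In non-small cell lung cancer lines, NRF2 is known to raise the serine synthesis genes through ATF4. The comparison asks which of these transcripts differ when CEBPB is lowered.

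The C/EBP-ATF element is shown first, because it is the sequence that ties a C/EBP partner to this gene set. Promoter windows from RefSeq (GRCh38.p14, 250 bases before to 50 after each listed start) were matched for 30 of the 35 genes. NUPR1, PSPH, SHMT2, ALDH1L2 and GPT2 were not matched. Capitals mark the core TGATGNAA, or its reverse complement, where it lay before every listed start of its gene. The CTH stretch, the 150 bases before its start, is printed because CTH had the largest log2 change of the set, and it holds no match. All are written 5′ to 3′ along the gene.
ASNS (chr7:97872439-97872506, minus strand): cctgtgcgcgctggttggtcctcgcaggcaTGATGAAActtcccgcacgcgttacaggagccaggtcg
CHAC1 (chr15:40953232-40953299, plus strand): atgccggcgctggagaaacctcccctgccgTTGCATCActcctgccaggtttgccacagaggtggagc
AARS (chr16:70289656-70289723, minus strand): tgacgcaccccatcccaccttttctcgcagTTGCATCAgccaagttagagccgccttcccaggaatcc
CTH (chr1:70411118-70411267, plus strand): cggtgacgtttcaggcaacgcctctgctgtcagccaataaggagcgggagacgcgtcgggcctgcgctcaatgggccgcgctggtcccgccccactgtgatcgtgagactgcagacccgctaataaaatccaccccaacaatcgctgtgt

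Searched on both strands, TGATGNAA occurred in at least 1 window of 10 of the 30 matched genes, and in 4.46% of all genes with windows (1217 of 27305). The 10 were AARS, ASNS, CHAC1, GARS, MTHFD1L, SLC1A4, SLC1A5, SLC38A1, SLC3A2 and SLC7A1. Of these, only AARS, ASNS and CHAC1 had a match before every listed start of the gene. A gene counted if any of its windows matched, so genes with more listed starts had more chances. The set was also chosen partly as ATF4 targets, so these shares are not like for like. The C/EBP motif TTNNGNAA, which can share bases with the first, occurred in 11 of the 30 and in 41.8% of all genes. The cyclic AMP response element TGACGTCA occurred in 0 of the 30 and in 2.25% of all genes. A match describes letters and not a bound site, and no match says nothing of sequence outside these windows.

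The libraries summed to between 494066 and 528606 FPKM, and the authors' mean normalized counts summed to 8341083. The 35 genes held 0.342% of FPKM with siRNA-1 and 0.470% with siRNA-2, against 0.401% in control 1 and 0.444% in control 2. CEBPB itself was at 12.9 FPKM with siRNA-1 and 10.97 with siRNA-2, against 78.7 and 80.9 in the controls, a log2 change of -2.65 ± 0.17 (SE, n = 2 per group; limma adjusted p = 0.0167). That limma call was lost without control 1 or without control 2, where the higher adjusted p was 0.336, and without the filter on low values (adjusted p = 0.262). The 5 epithelial markers summed to 1824 and 2841 FPKM with the siRNAs, against 3599 and 5058 in the controls, nearly all of it KRT8 and KRT18. Within that list KRT19 went the other way, at 5.32 and 7.38 FPKM with the siRNAs, against 2.41 and 3.28 in the controls (limma adjusted p = 0.248). Of 11 markers of leukocytes, endothelium, fibroblasts and red cells, 7 were listed at 0 in all 4 libraries. Their summed level was 4.33 and 2.34 FPKM with the siRNAs, against 0.781 and 0.665 in the controls, nearly all of it COL1A1, and the others stayed at or below 0.0957. The authors' deposited table called KRT18 lower (log2 change -1.21, adjusted p = 0.0317) and COL1A1 higher (1.88, adjusted p = 0.00621). It called 1.42% of all its genes lower and 2.71% higher. Neither marker passed in limma (adjusted p = 0.339 and 0.198). The part of these shifts in the results was not tested.

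For 22 of the 35 genes the knockdown and control levels overlapped. In limma, on log2(FPKM + 1) over all tested genes, 0 of 35 passed an adjusted p of 0.05, where 0.235% of all tested genes did (0.0640% higher and 0.171% lower). At an unadjusted p below 0.05, 4 members passed, against 12.2% of all genes. SESN2, VLDLR and CBS were higher and CTH was lower, against 7.07% and 5.13% of all genes. The authors' deposited table called 0 members higher and 1, CTH, lower, where 2.71% and 1.42% of its genes were (4.14% in all). The groups did not overlap for 13 members, against 44.5% of tested genes. Of these, 9 were higher and 4 lower, against 23.5% and 21.0%. The median log2 change was 0.04, beside 0.00103 for all tested genes, and single members lay between -1.44 and 0.72. These shares lie near the background or below it. The count of members called in limma was 6 without the siRNA-2 library (CTH, NUPR1, SLC3A2, SLC7A5 and TRIB3 lower, SLC1A4 higher), where 13.2% of all tested genes were called, and 0 without any other library. The non-overlap count of 13 was 27 without siRNA-1, 26 without siRNA-2, 20 without control 1 and 23 without control 2. Under the same settings 74.6%, 82.2%, 66.3% and 65.7% of all tested genes did not overlap, since fewer libraries separate more easily. An exact permutation test (two-sided) on 1 gene has a smallest possible p of 0.333 with 2 libraries in each group.

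**Figure D1:**
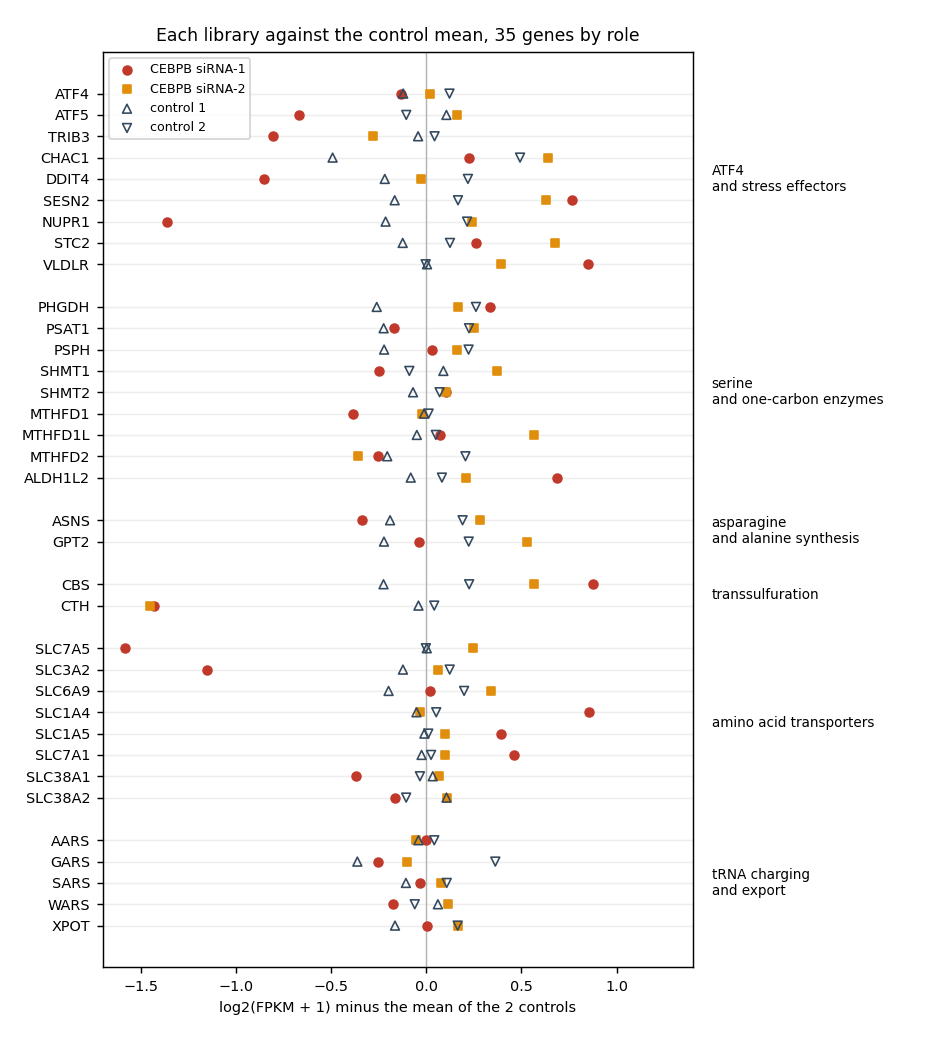
Difference of each library from the mean of the 2 controls, on the log2(FPKM + 1) scale, for the 35 genes grouped by role. Filled points are the 2 CEBPB siRNA libraries and open triangles the 2 controls. Both CTH siRNA points lie near -1.44, and for SLC7A5, SLC3A2 and NUPR1 the siRNA-1 point alone lies below -1.1.

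Transsulfuration, which moves sulfur from homocysteine to cysteine, held the lowest log2 change of the 35 genes, that of CTH. The change of CBS was the highest with a pseudocount of 1, but SESN2 exceeded it with pseudocounts of 0.5 and 0.1. CTH, the cystathionine gamma-lyase that releases cysteine in the last step, was at 1.59 FPKM with siRNA-1 and 1.55 with siRNA-2, against 5.79 and 6.19 in the controls. Both siRNA libraries lay below both controls and nearly at the same level. CTH averaged 1.57 ± 0.0264 FPKM with CEBPB siRNA and 5.99 ± 0.284 in controls (SD, n = 2 each), a ratio of 0.262. CTH fell in the authors' deposited table, by a log2 change of -1.74 ± 0.44 (adjusted p = 0.00412). Its mean normalized count over all libraries of both groups was 70.0. In limma its log2 change was -1.44 ± 0.21 (SE), and it did not pass (adjusted p = 0.0983). The limma adjusted p was 0.0196 in a fit with each siRNA as its own group (6.90% of all tested genes passed there), and lay between 0.0183 and 0.796 when single libraries were left out, with the change between -1.48 and -1.40.

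CBS, the cystathionine beta-synthase of the step before, was at 25.4 FPKM with siRNA-1 and 20.3 with siRNA-2, against 11.3 and 15.8 in the controls. All siRNA values exceeded the controls, but the log2 change of 0.72 ± 0.23 passed neither in limma (adjusted p = 0.305) nor in the authors' deposited table (0.75, adjusted p = 0.212). The siRNA libraries had CBS to CTH level ratios of 15.98 (siRNA-1) and 13.1 (siRNA-2), against 1.95 and 2.55 in the controls. This ratio sets the member with the highest log2 change over that with the lowest, so a wide gap follows from the choice.

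**Figure D2:**
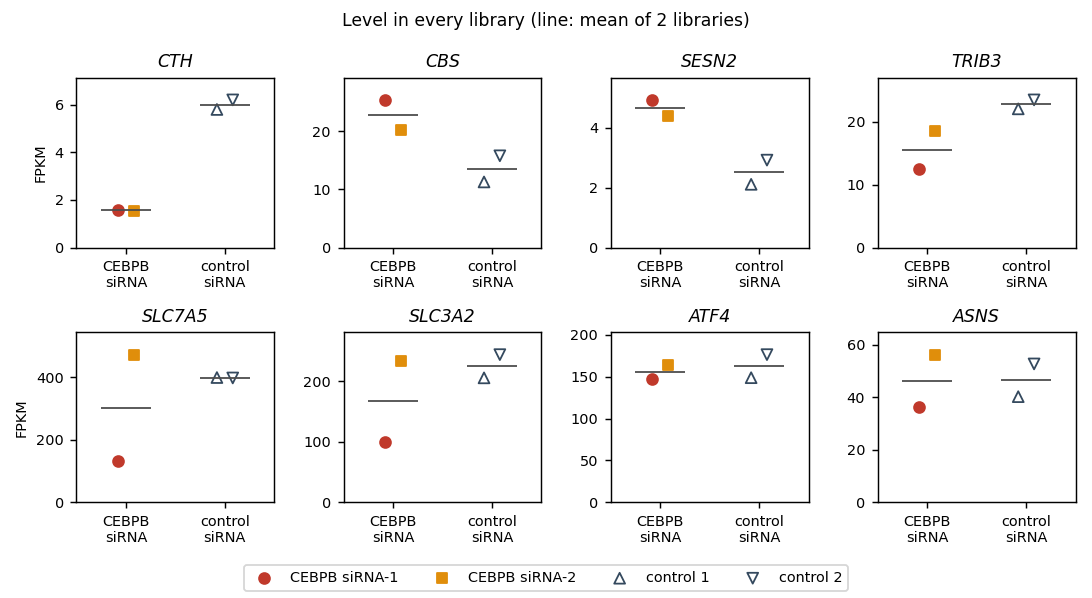
FPKM in every library for 8 of the genes; each panel has its own axis starting at 0, points are libraries and the line is the mean of 2. CTH is at 1.59 and 1.55 FPKM with CEBPB siRNA and at 5.79 and 6.19 in controls, while the SLC7A5 levels are 132 for siRNA-1 and 473 for siRNA-2.

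ATF4 mRNA showed no call. It was at 148 FPKM with siRNA-1 and 164 with siRNA-2, against 149 and 176 in the controls, a log2 change of -0.06 ± 0.17 (limma adjusted p = 0.926). The groups overlapped. ATF4 is controlled mainly at translation, which these libraries do not measure. Its pseudogene copies ATF4P3 and ATF4P4 were listed at 7.67 to 20.0 FPKM, so some reads may be shared. ATF5, a related factor with the same kind of translational control, was at 17.0 and 31.0 FPKM with the siRNAs, against 29.8 and 25.6 in the controls.

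Of the other stress effectors, SESN2, VLDLR and STC2 were higher and TRIB3 was lower in both siRNA libraries, and none passed. SESN2, a leucine-binding inhibitor of mTORC1, was at 4.92 and 4.40 FPKM with the siRNAs, against 2.11 and 2.92 in the controls (log2 change 0.70 ± 0.23; limma adjusted p = 0.319). VLDLR, a lipoprotein receptor and known ATF4 target, was at 5.23 and 3.54 FPKM with the siRNAs, against 2.46 and 2.45 in the controls (0.62 ± 0.24; limma adjusted p = 0.399). STC2, a secreted glycoprotein induced by ATF4, was at 22.5 and 30.4 FPKM with the siRNAs, against 17.0 and 20.4 in the controls (0.47 ± 0.21; limma adjusted p = 0.469).

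TRIB3, a pseudokinase that feeds back on ATF4, was at 12.6 and 18.6 FPKM with the siRNAs, against 22.1 and 23.5 in the controls (log2 change -0.54 ± 0.23; limma adjusted p = 0.430). The siRNA-1 library was the lower of the siRNA pair. CHAC1, which degrades glutathione, was at 4.42 and 6.24 FPKM with the siRNAs, against 2.30 and 5.53 in the controls. Its controls differed by 0.99 on the log2 scale, more than its change of 0.43. DDIT4, an inhibitor of mTORC1, was at 51.9 and 92.7 FPKM with the siRNAs, against 81.1 and 110.2 in the controls. NUPR1, a small chromatin protein of the stress response, was at 2.56 and 9.84 FPKM with the siRNAs, against 6.91 and 9.64 in the controls. In DDIT4 and NUPR1 the siRNA-2 value lay within or just above the control range.

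Serine synthesis genes had overlapping groups. PHGDH, which draws 3-phosphoglycerate into the pathway, was at 42.1 and 37.3 FPKM with the siRNAs, against 27.5 and 39.9 in the controls. PSAT1, the aminotransferase of the next step, was at 83.6 and 112 FPKM with the siRNAs, against 80.4 and 110.1 in the controls. PSPH, the phosphatase that releases serine, was at 22.8 and 25.03 FPKM with the siRNAs, against 18.98 and 26.2 in the controls. For PSAT1 and PSPH the gap between the controls, 0.45 and 0.44 on the log2 scale, exceeded the change of 0.04 and 0.09.

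Among the one-carbon enzymes, which pass the serine carbon to folate, 3 were higher and 2 lower without overlap (23.5% and 21.0% of all tested genes were), and 0 of 9 serine and one-carbon genes passed limma, at an adjusted or unadjusted p below 0.05, or the authors' deposited table. The mitochondrial enzyme ALDH1L2, which oxidises formyl-tetrahydrofolate to make NADPH, was at 6.09 and 4.10 FPKM with the siRNAs, against 3.17 and 3.67 in the controls (log2 change 0.45 ± 0.25; limma adjusted p = 0.544). MTHFD1L, which releases formate in mitochondria, was at 18.8 and 26.8 FPKM with the siRNAs, against 17.2 and 18.5 in the controls (0.32 ± 0.22; limma adjusted p = 0.623). In these genes the siRNA libraries sat above both controls, by a small margin with siRNA-1 in MTHFD1L and with siRNA-2 in ALDH1L2.

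MTHFD2, the mitochondrial methylene-tetrahydrofolate dehydrogenase, was at 37.7 and 35.0001 FPKM with the siRNAs, against 39.0 and 52.2 in the controls (log2 change -0.30 ± 0.20; limma adjusted p = 0.599). Its cytosolic counterpart MTHFD1 was at 74.5 and 95.9 FPKM with the siRNAs, against 96.7 and 98.3 in the controls (-0.20 ± 0.18; limma adjusted p = 0.707). Control 1 lay close above the siRNA values for MTHFD2, and siRNA-2 lay close below the controls for MTHFD1. SHMT2, the mitochondrial serine hydroxymethyltransferase, was at 72.3 FPKM with either siRNA, against 64.1 and 70.7 in the controls (0.10 ± 0.15; limma adjusted p = 0.844). The cytosolic SHMT1 was at 20.8 and 32.6 FPKM with the siRNAs, against 26.6 and 23.4 in the controls, so the siRNA values straddled the controls.

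Asparagine and alanine synthesis overlapped between groups. ASNS, asparagine synthetase and the promoter in which the amino acid response was mapped, was at 36.1 and 56.2 FPKM with the siRNAs, against 40.2 and 52.6 in the controls (log2 change -0.03 ± 0.26; limma adjusted p = 0.979). GPT2, a mitochondrial alanine aminotransferase, was at 6.41 and 9.98 FPKM with the siRNAs, against 5.52 and 7.88 in the controls (0.24 ± 0.28; limma adjusted p = 0.781).

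Among the amino acid transporters, 4 of 8 differed between the siRNAs at an unadjusted p below 0.05 in limma, as did 4 of 9 stress genes and 22.4% of all tested genes. SLC7A5, the light chain of the L-type exchanger that imports leucine and other large neutral amino acids, was at 132 FPKM with siRNA-1 and 473 with siRNA-2, against 399 and 398 in the controls. The siRNA-1 library stood below and the siRNA-2 library above the nearly equal controls. The SLC7A5 difference, siRNA-1 minus siRNA-2, was -1.83 ± 0.14 on the log2 scale, and SLC7A5 was the 1 member below the threshold (limma fit with 3 groups, adjusted p = 0.0404). Of all tested genes 0.441% were below it, and 0.327% were lower with siRNA-1. Each siRNA is 1 library, so the spread rests on the control pair. Limma joined the control spread of SLC7A5 with that of all tested genes at similar levels. The SLC7A5 controls were nearly equal, so most of the spread used came from other genes. This p compares the 2 siRNA libraries and holds nothing on how cultures given the same siRNA vary. Adjusted p was 0.0573 with a pseudocount of 0.1, 0.0616 with upper-quartile scaling and 0.0941 without an intensity trend. The pseudogene copy SLC7A5P2 was at 14.4 and 39.5 FPKM with the siRNAs, against 52.9 and 17.98 in the controls, so reads may be shared.

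SLC3A2, the heavy chain that carries SLC7A5 to the membrane, was at 100.2 FPKM with siRNA-1 and 233 with siRNA-2, against 205 and 244 in the controls. Here too siRNA-1 alone lay below the controls. The difference between the siRNAs was -1.21 ± 0.18 and did not pass (limma adjusted p = 0.0636). Relative to the control mean, siRNA-1 left 0.332 of the SLC7A5 level and 0.446 of that of SLC3A2, and siRNA-2 gave 1.19 and 1.04. Over both siRNAs the log2 changes were -0.67 ± 0.56 and -0.54 ± 0.40 (limma adjusted p = 0.692 and 0.641), and without the siRNA-1 library they were 0.25 and 0.06.

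SLC1A4, an exchanger of alanine, serine and cysteine, was at 13.1 FPKM with siRNA-1 and 6.59 with siRNA-2, against 6.49 and 7.05 in the controls, again with siRNA-1 alone apart, but upward. SLC1A5, the glutamine transporter, was at 155 and 126 FPKM with the siRNAs, against 117 and 118 in the controls (log2 change 0.24 ± 0.17; limma adjusted p = 0.623). SLC7A1, which imports arginine and lysine, was at 35.5 and 27.4 FPKM with the siRNAs, against 25.1 and 26.0 in the controls (0.28 ± 0.19; limma adjusted p = 0.614). SLC1A5 and SLC7A1 lay above both controls with both siRNAs, further with siRNA-1. The glutamine carriers SLC38A1 and SLC38A2 and the glycine carrier SLC6A9 overlapped between groups, with log2 changes of -0.15, -0.03 and 0.18.

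The tRNA synthetases for alanine, glycine, serine and tryptophan, AARS, GARS, SARS and WARS, and the tRNA exporter XPOT had overlapping groups in all 5 cases, with log2 changes between -0.18 and 0.08. AARS, which carries the element printed above, was at 121 and 117 FPKM with the siRNAs, against 118 and 125 in the controls. GARS was at 148 and 164 FPKM with the siRNAs, against 137 and 227 in the controls, the widest control gap of the 5 at 0.73 on the log2 scale. The 10 genes with a TGATGNAA match in a window had log2 changes from -0.54 to 0.43, and 3 of them had groups that did not overlap, against 8 of the 20 matched genes without one and 44.5% of all tested genes.

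A gap between the siRNAs or between the controls compares single libraries. The log2 change compares group means, so such a gap varies more even where nothing differs. In 24 of 35 members the gap between the siRNAs exceeded the log2 change against control, as in 60.6% of all tested genes, and in 17 the gap between the controls did, as in 41.97%. At an unadjusted p below 0.05, 11 members differed between the siRNAs, as did 22.4% of tested genes. The gap between the siRNAs passed 1 on the log2 scale in 3 members, SLC7A5, SLC3A2 and NUPR1 (6.85% of tested genes did), and that between the controls in 0 (1.67%). After SLC7A5, NUPR1 (-1.61 ± 0.29) and SLC3A2, the next lower with siRNA-1 were ATF5 (-0.83 ± 0.19) and DDIT4 (-0.82 ± 0.24), with limma adjusted p of 0.0768 for NUPR1, 0.101 for ATF5 and 0.155 for DDIT4. Highest with siRNA-1 were SLC1A4 (0.89 ± 0.21), ALDH1L2 (0.47 ± 0.25), VLDLR (0.46 ± 0.24), SLC7A1 (0.36 ± 0.16) and CBS (0.31 ± 0.27), with limma adjusted p between 0.110 and 0.540.

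**Figure D3:**
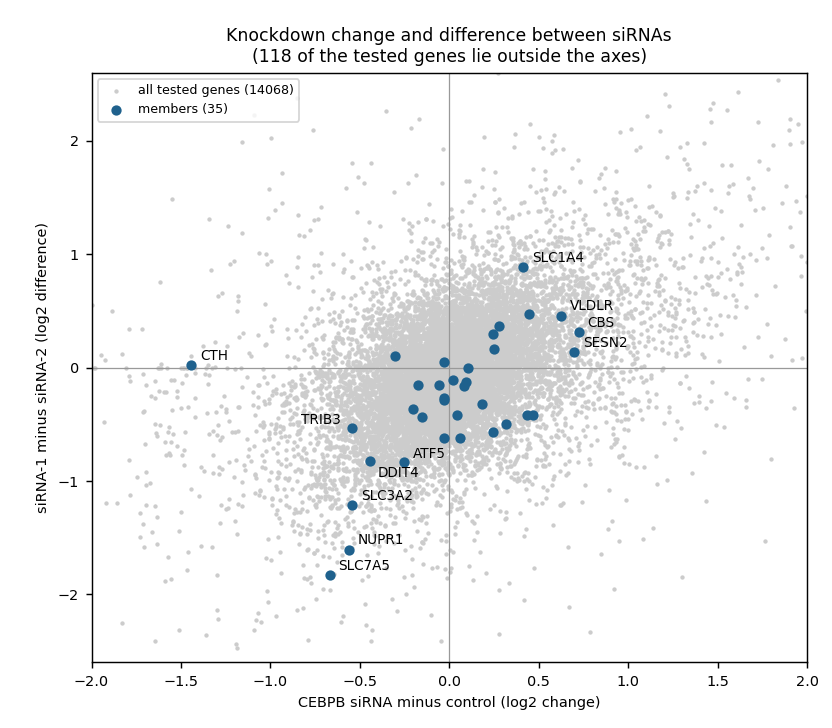
Log2 change of CEBPB siRNA against control (horizontal) and log2 difference of siRNA-1 from siRNA-2 (vertical), for the 35 members in blue over all 14068 tested genes in grey, of which 118 lie outside the axes. CTH sits at -1.44 with a difference between siRNAs of 0.02, and SLC7A5 at -0.67 with a difference of -1.83.

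Around these genes, lists of other pathway genes were examined in the same fit. In limma 0 of their genes passed, with 0 to 3 a list at an unadjusted p below 0.05, and the authors' deposited table called 4, all lower, where it called 1.42% of all its genes lower. ASS1, argininosuccinate synthase of arginine synthesis, was at 9.77 and 7.51 FPKM with the siRNAs, against 25.9 and 35.8 in the controls (limma log2 change -1.72 ± 0.23, adjusted p = 0.0926; authors' deposited table -1.80, adjusted p = 8.2e-06). PRODH, the mitochondrial enzyme that begins proline breakdown, was at 1.23 and 3.58 FPKM with the siRNAs, against 10.2 and 8.54 in the controls (limma -1.69 ± 0.37, adjusted p = 0.178; authors' deposited table -1.81, adjusted p = 0.00958). In both genes all siRNA values lay well below the controls.

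SLC7A7, the light chain of an exchanger for cationic and neutral amino acids that also pairs with SLC3A2, was at 15.4 and 29.1 FPKM with the siRNAs, against 51.6 and 63.0 in the controls (limma -1.39 ± 0.32, adjusted p = 0.184; authors' deposited table -1.74, adjusted p = 3.7e-08). GDF15, a stress-induced cytokine and target of ATF4 and p53, was at 19.4 and 63.7 FPKM with the siRNAs, against 137 and 83.1 in the controls (limma -1.57 ± 0.56, adjusted p = 0.353; authors' deposited table -1.45, adjusted p = 0.0310). The nearest GDF15 values of the groups, 63.7 and 83.1 FPKM, lay closer together than the controls did.

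By list, the authors' deposited table called 1 lower among 14 ATF4 partners and other targets with an adjusted p, 1 lower among 15 other amino acid transporters and 2 lower among 16 genes of glutamine, glutamate, aspartate, proline and branched-chain metabolism, beside 1.42% of all its genes. It called 0 in either direction among 13 eIF2 kinase, phosphatase and eIF2B genes, 19 other cytosolic tRNA synthetase genes, 18 other folate, glycine and methionine cycle genes, 6 sulfur amino acid breakdown genes and 13 genes of amino acid sensing upstream of mTORC1. Median log2 changes of the lists lay between -0.38, over 6 tested sulfur amino acid genes, and 0.12, over 12 tested transporters. The smallest limma p in the lists without a call belonged to the eIF2 kinase EIF2AK4 (GCN2), with 0.50 ± 0.17, the synthetase complex scaffold AIMP1, with -0.39 ± 0.20, the folate hydrolase GGH, with -0.67 ± 0.21, the sulfurtransferase MPST, with -0.63 ± 0.18, and the Rag GTPase RRAGB, with -0.72 ± 0.20. Their limma adjusted p-values lay between 0.254 and 0.517. EIF2AK4 senses uncharged tRNA upstream of ATF4, and its level was 15.6 and 15.99 FPKM with the siRNAs, against 11.1 and 10.6 in the controls.

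**Figure D4:**
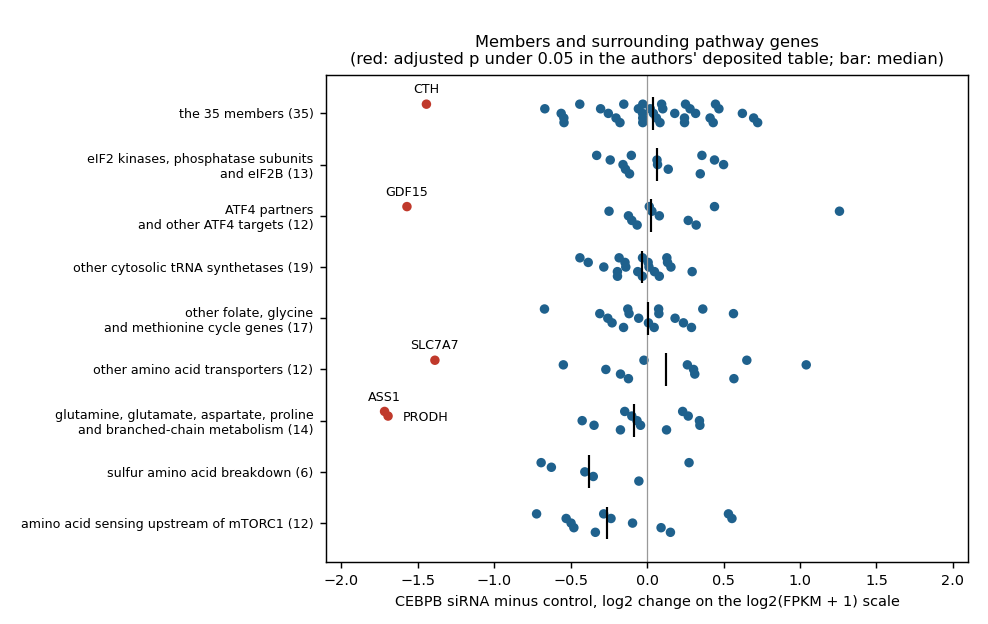
Log2 change of CEBPB siRNA against control, on the log2(FPKM + 1) scale, for the 35 members and for tested genes of 8 surrounding pathway lists, with the number tested in brackets and the median as a bar. The 5 red points, CTH, GDF15, SLC7A7, ASS1 and PRODH, have an adjusted p below 0.05 in the authors' deposited table, and all lie below -1.3.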

How the data were processed

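RNA-seq libraries (strand-specific kit, 76-base single-end reads) came from A549 cells, 2 from cells given CEBPB siRNA and 2 from cells given control siRNA. Per the submitters' processing notes, build hg19 was used with StringTie 2.1.4, STAR 2.7.0d, DESeq2 1.26.0 and HTSeq 0.13.5, with no role or order given. The deposited per-library values carry no unit name and were taken as FPKM, since the headers are those of StringTie and the columns have unequal sums. The other columns are, per the file headers, a DESeq2 table by the authors: a signal (mean count after size factors), a log2 fold change with its standard error, a score (the Wald statistic), and a p-value with its adjusted p-value. Counts per library were not part of the table, so depth per library is unknown. Whether counting used strand is not given in the sources used here.

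Limma 3.58.1 in R 4.3.3 was fitted with an intensity trend to log2(FPKM + 1) over the 14068 genes averaging 1 FPKM or more, with Benjamini-Hochberg adjustment over all of them. The threshold was 0.05. Residual degrees of freedom numbered 2, to which the prior added 3.61. Log2 changes on this scale understate those of low genes. The siRNAs were compared in a 3-group fit. The fit was tested on simulated data with changes larger than that of any member and no difference between the siRNAs. That test does not show how often changes of the members' size would be found.

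The members, lists, motifs and rules were chosen with earlier results of these data known. Values in every library are given for members called in either table, for those with the largest changes and groups that do not overlap (up to 8 per direction), for ATF4 and for up to 5 per direction between the siRNAs; from each pathway list, for called genes or the gene with the smallest p. Values shown for the remaining members, pseudogene copies, the CBS to CTH ratio and GARS gaps were chosen after they were seen. Promoter windows were matched through gene IDs to current symbols; no coordinates were moved between builds. Alternatives covered the pseudocount, filter, scaling, variance prior, replicate block, 3-group fit and leaving out each library.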

Additional observations from a re-analysis of the deposited data

Results flagged for a closer look

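SLC7A5 differed between the siRNAs by -1.83 on the log2 scale (siRNA-1 minus siRNA-2; limma adjusted p = 0.0404), with 132 FPKM with siRNA-1 and 473 with siRNA-2, against 399 and 398 in the controls. It is listed because knockdown of the same gene with 2 siRNAs gave differing values. Each siRNA is 1 library, and the p-value takes its spread from the controls, over SLC7A5 and all tested genes at similar levels. The SLC7A5 controls were nearly equal, so most of that spread came from other genes. It did not pass with a pseudocount of 0.1 (adjusted p = 0.0573), upper-quartile scaling (0.0616) or no intensity trend (0.0941). SLC7A5P2, a pseudogene copy, was also lowest with siRNA-1, at 14.4 FPKM, against 39.5 with siRNA-2. Its controls were unequal, at 52.9 and 17.98 FPKM, unlike those of SLC7A5. Its part in the difference was not tested.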

How the results depend on the processing

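No member was called in limma under either other pseudocount, no filter, a mean of at least 5 FPKM, either scaling, no trend or the replicate block, and the 3-group fit called 2, CTH and SLC7A5. With a mean of at least 5 FPKM, 29 of the 35 members were tested, and CTH was not. The labels do not say whether libraries with the same number were handled together. Deviations of such libraries from the group means correlated at 0.0754 over genes. In the knockdown group the number also marks the siRNA, so this value cannot show whether the libraries were paired. The replicate block left 0 members called (lowest adjusted p = 0.122); over all genes it called 11 higher and 14 lower, against 9 and 24 without it. Over all genes no filter gave 0 and 0 (2438 at an unadjusted p below 0.05), and the 3-group fit 538 and 433. Leaving out 1 library gave 0 to 915 higher and 0 to 940 lower calls over all genes, 0 to 6 member calls, and 20 to 27 members without overlap. The members' median log2 change lay between -0.07 and 0.17 over all alternatives. Between the siRNAs, 6 members passed with a mean of at least 5 FPKM (ATF5, DDIT4, NUPR1, SLC1A4, SLC3A2 and SLC7A5), where 13.6% of the 9511 genes did, and 0 with a pseudocount of 0.1, upper-quartile scaling or no trend; the cause was not tested. Over all genes that contrast called 0 to 1915, so its calls depend heavily on the setting. Without a control, that contrast has no residual degree of freedom, and its value stays the same by construction. A fit without 1 library assumes that the lone sample varies like the other group.

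The sign of the log2 change held for 14 members whichever library was left out, and for none of the 35 did it change under the other alternatives that tested it. The other 21 had ranges on both sides of 0: AARS -0.071 to 0.012, ASNS -0.34 to 0.28, ATF4 -0.18 to 0.065, ATF5 -0.67 to 0.16, CHAC1 -0.061 to 0.92, GARS -0.54 to 0.19, GPT2 -0.038 to 0.53, NUPR1 -1.37 to 0.24, PHGDH -0.0099 to 0.51, PSAT1 -0.18 to 0.27, PSPH -0.13 to 0.32, SARS -0.087 to 0.13, SHMT1 -0.25 to 0.37, SLC1A4 -0.032 to 0.86, SLC38A1 -0.37 to 0.065, SLC38A2 -0.16 to 0.11, SLC3A2 -1.15 to 0.061, SLC6A9 -0.018 to 0.38, SLC7A5 -1.58 to 0.25, WARS -0.17 to 0.12 and XPOT -0.081 to 0.25. With 2 libraries a group and no counts per library, changes of the size seen in most members could not be told from the spread.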

Other observations

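The following values were singled out after they were seen. Control 2 exceeded control 1 in 28 of the 35 genes, where 41.4% of all tested genes did, and siRNA-2 exceeded siRNA-1 in 24 of 35, where 56.2% of all tested genes did. The gap between the controls was widest in CHAC1, at 2.30 and 5.53 FPKM, and in GARS, at 137 and 227 FPKM.

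ATF3, a stress-induced partner of ATF4, was at 12.1 FPKM with siRNA-1 and 3.60 with siRNA-2, against 1.98 and 2.54 in the controls, and passed neither in limma (adjusted p = 0.402) nor in the authors' deposited table (adjusted p = 0.0578). The taurine transporter SLC6A6 was at 61.9 FPKM with siRNA-1 and 23.6 with siRNA-2, against 26.3 and 21.98 in the controls. PPP1R15A, which directs the eIF2 phosphatase, was at 43.0 FPKM with siRNA-1 and 16.02 with siRNA-2, against 21.3 and 17.3 in the controls. In all of these genes the siRNA-1 library was the highest.

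DDIT3 (CHOP), CEBPG and the cystine transporter SLC7A11, each tied to ATF4, had log2 changes of -0.07, 0.03 and -0.12. The sign of the change was the same in FPKM and in the authors' deposited table for 32 of 35 members; GARS, SARS and SHMT1 differed, with FPKM changes of at most 0.18 in size.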
